A study of Sus scrofa with 8 samples.

Results

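Mitochondrial ribosomal proteins, whose gene symbols begin with MRPL or MRPS followed by a digit, form the ribosome that works inside mitochondria. They were chosen here by symbol alone, in any of 4 lists of N6-methyladenosine (m6A) peaks from pig muscle. The rule found 38 genes of 5650 with a peak in any list. Each list came from 1 animal, a Jinhua or a Landrace male aged 180 days, with 2 animals per breed. The labels call Jinhua a Chinese breed with more fat within its muscle and Landrace a Danish one. From each animal an input library and a library pulled down with an m6A antibody were sequenced, 8 samples in 4 groups of 2. The question of the study was the role of m6A in this fat. The labels name no treatment, and each library came from muscle tissue, whose cell types were not analysed here. For each gene a list gives how many peaks it had and where on 1 transcript each peak began and ended, with its annotated part. It holds no read counts, so depth is unknown, and for a gene without a peak, low expression and absent methylation cannot be told apart. With 2 animals per breed, p-values measure the spread between these animals only. In bulk muscle fewer cells of a type and less RNA per cell cannot be told apart.

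Mitochondrial ribosomes translate the few proteins encoded by mitochondrial DNA, all of them subunits of the respiratory chain or of ATP synthase. Their ribosomal RNAs come from mitochondrial DNA, but their proteins are encoded in the nucleus, translated in the cytosol and imported. Some of these proteins descend from bacterial ribosomal proteins and others occur in mitochondria alone. The small subunit reads the message, and the large subunit joins the amino acids. m6A is set on messenger RNA in the nucleus, often near the stop codon and in long exons, and is read by proteins that alter the stability and translation of the transcript.

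Peaks were found in more of these genes in each Jinhua animal than in each Landrace animal, an ordering that 4 animals cannot put past a test. The Jinhua 1 list held 28 of the 38 genes and the Jinhua 2 list 29, against 17 in Landrace 1 and 25 in Landrace 2. The means were 28.5 ± 0.707 genes in Jinhua and 21 ± 5.66 genes in Landrace (SD, n = 2 each). A two-sided exact permutation test gave p = 0.333, the smallest this design allows, and 0.381 after Benjamini-Hochberg adjustment over 8 tests. The genes carried 33 peaks in each Jinhua animal, against 18 in Landrace 1 and 27 in Landrace 2, with the same p. Landrace 1 had the fewest genes and peaks. Without it the difference of 7.5 genes fell to 3.5, and without Landrace 2 it was 11.5. The lists themselves were of unequal length, with 3863 genes in Jinhua 1 and 4468 in Jinhua 2, against 3798 in Landrace 1 and 3647 in Landrace 2. Mitochondrial ribosomal protein genes made up 0.725% and 0.649% of the genes in the Jinhua lists, against 0.448% and 0.685% in the Landrace lists. As a share of each list, then, Landrace 1 was low and Landrace 2 lay between the Jinhua animals.

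Of the 38 genes, 17 (44.7%) had a peak in all 4 animals, close to the 43.8% of all 5650 called genes for which this held. A peak in a single list was found for 14 genes (36.8%), where the share over all called genes was 24.3%. Another 3 genes were called in 3 lists and 4 in 2. Every gene of the family in the Landrace 1 list was among the 17 called in all animals. Of the other genes in that list 64.98% were called in all 4. The genes called in 1 list belonged to Jinhua 1 in 6 cases, Jinhua 2 in 6, Landrace 2 in 2 and Landrace 1 in none. Jinhua animals thus held 12 of the 14 (85.7%), where they held 64.9% of all 1375 genes called in 1 list. Over those genes the shares were 17.3% for Jinhua 1 and 47.6% for Jinhua 2, against 20.4% for Landrace 1 and 14.8% for Landrace 2. Over the 4 animals the share of a list's genes that all lists held averaged 71.8% ± 19.2 for the family and 63.1% ± 5.38 for the other genes (SD, n = 4, exact sign-flip permutation p = 0.5). The genes held by all lists are the same in every animal, so these values differ only through how many genes each list held. The SD and p therefore do not measure a spread in sharing. The difference of 8.77 percentage points was 35.0 points in Landrace 1 and between -3.35 and 3.27 in the other animals. With the other 3 lists alone, and sharing counted over those 3, it was 5.13. It was 4.14 without Landrace 2, and 1.78 with symbols completed and other names added.

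**Figure D1:**
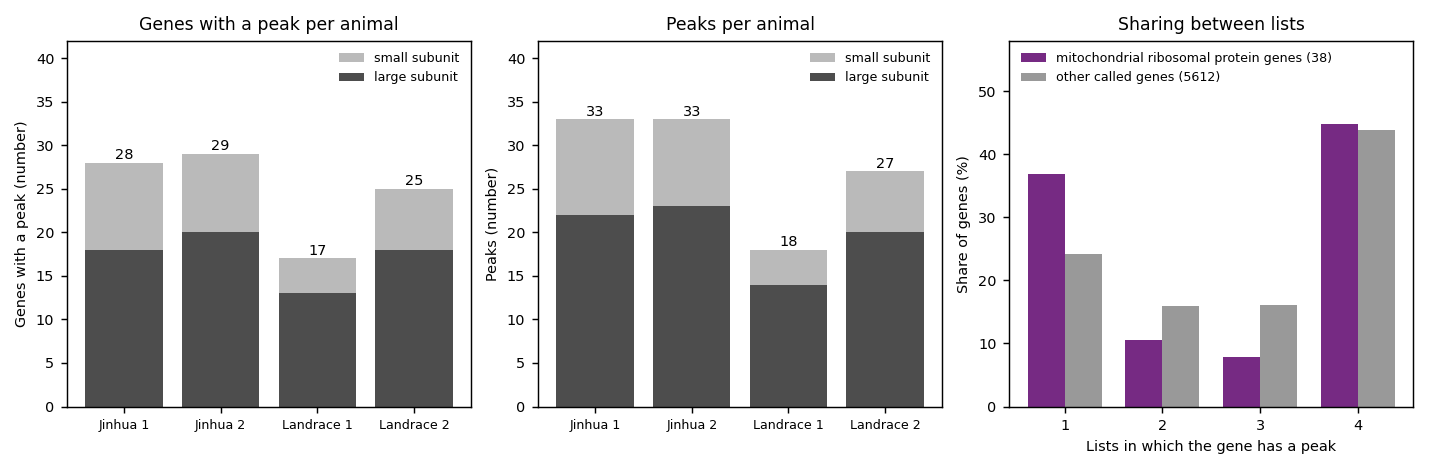
The first panel plots the number of mitochondrial ribosomal protein genes with a peak and the second their number of peaks, for each animal, with the small subunit in light grey above the large subunit in dark grey. The third panel plots the share of genes found in 1, 2, 3 or 4 lists, for the 38 genes and for the 5612 other called genes. The Jinhua animals have 28 and 29 genes, against 17 and 25 in the Landrace animals.

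By subunit, 13 of the 38 genes encode proteins of the small subunit and 25 proteins of the large subunit. MRPS30 is counted with the large subunit, where its protein sits despite the name. A peak in all 4 animals was found for 4 of the 13 small subunit genes (30.8%) and for 13 of the 25 large subunit genes (52%). Of 22 genes with a bacterial homologue 12 (54.5%) were called in all animals, and of the 16 classed here as known in mitochondria alone 5 were (31.2%). Over all called genes this share was 43.8%. In the single-list class the counts were 5 of 22 (22.7%) and 9 of 16 (56.2%), against 24.3% over all called genes. A gene called in all lists cannot be in the single-list class, so these orders are not independent. These are counts of a few genes and were not tested.

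The gene name table held 65 symbols of the family, and 40 of them (61.5%) had a peak in at least 1 list, with names completed from that table where a list gave none. Over all 15622 symbols of the table the share was 28.4%. By list, 29 symbols of the family had a peak in Jinhua 1 and 32 in Jinhua 2, against 17 in Landrace 1 and 26 in Landrace 2. As shares these were 44.6% and 49.2% in the Jinhua lists, against 26.2% and 40% in the Landrace lists. All symbols of the table gave 19.6% and 22.8% in the Jinhua lists, against 19.4% and 18.5% in the Landrace lists. The share was 57.4% for cytosolic ribosomal protein genes and 64.3% for genes of respiratory complex I, so it was not particular to mitochondrial ribosomes. Expression of these genes was not measured here, and its part in these shares was not tested. No list held a peak under the names of 9 small subunit and 16 large subunit symbols. Some identifiers in the lists had no symbol, so a peak under an identifier left without a name would be missed here. Among these 25 were MRPL10, MRPL13, MRPL37, MRPL47, MRPS12, MRPS22 and MRPS35. MRPL14 and MRPL32 had peaks and were not in the table.

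Among the large subunit genes called in every animal, the peaks of MRPL15 (ENSSSCG00000030578) lay most nearly in the same place. They covered bases 469 to 628 of transcript ENSSSCT00000024986 in Jinhua 1 and 469 to 626 in Jinhua 2, against 469 to 624 in Landrace 1 and 471 to 626 in Landrace 2. All were annotated as coding sequence, and their centres spanned 2 bases. MRPL43 (ENSSSCG00000010560) was nearly as fixed, with a peak that ended at base 454 of ENSSSCT00000011552 in every animal. It began at base 291 in Jinhua 1 and 299 in Jinhua 2, against 296 in Landrace 1 and 299 in Landrace 2. MRPL32, which in yeast and mouse is matured by the m-AAA protease, had coding peaks at bases 440 to 596 and 431 to 594 of ENSSSCT00000029923 in Jinhua 1 and Jinhua 2. In Landrace 1 they lay at 425 to 584, and in Landrace 2 at 428 to 584. The 4 peaks of each of these genes shared most of their bases, from 84.3% of the merged span in MRPL32 to 96.25% in MRPL15.

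MRPL3, MRPL4, MRPL12, MRPL18 and MRPL20 also had a single coding peak in each animal, with looser edges. MRPL3 is a core protein near the centre where peptide bonds are made. Its peak covered bases 57 to 220 of ENSSSCT00000012242 in Jinhua 1 and 37 to 208 in Jinhua 2, against 23 to 150 in Landrace 1 and 23 to 178 in Landrace 2. The Landrace peaks began upstream of both Jinhua peaks. MRPL12, the stalk protein that binds translation factors, had peaks with centres at bases 804 and 789 in the Jinhua animals, against 791.5 and 830.5 in the Landrace animals. For MRPL12 the breeds overlapped. MRPL18 was listed at bases 29 to 207 of ENSSSCT00000004475 in Jinhua 1 and 53 to 221 in Jinhua 2, and at bases 41 to 140 in both Landrace animals. The Landrace peaks were narrower and had identical edges. MRPL4 and MRPL20 kept no order by breed, with MRPL4 centres at bases 409 and 383.5 in the Jinhua animals, against 414.5 and 406.5 in the Landrace animals. In MRPL20 they lay at bases 205.5 and 249, against 194 and 215. At 100 bases the Landrace peaks of MRPL18 had the smallest width found in any list, as did 10 of the 111 peaks of the family.

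MRPL28 (ENSSSCG00000007984) had the most peaks of the family, at 3 sites of transcript ENSSSCT00000008748. Jinhua 1 had 3 peaks and Jinhua 2 had 2, against 2 in Landrace 1 and 3 in Landrace 2. The site furthest downstream, in the 3' UTR, was present in all 4, at bases 961 to 1146 in Jinhua 1 and 941 to 1130 in Jinhua 2, against 921 to 1120 in Landrace 1 and 951 to 1133 in Landrace 2. A coding site around bases 700 to 870 was missing from Landrace 1, and a coding site around bases 81 to 220 was missing from Jinhua 2. The lists thus differed at 2 of the 3 sites of MRPL28, and neither difference followed the breeds.

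**Figure D2:**
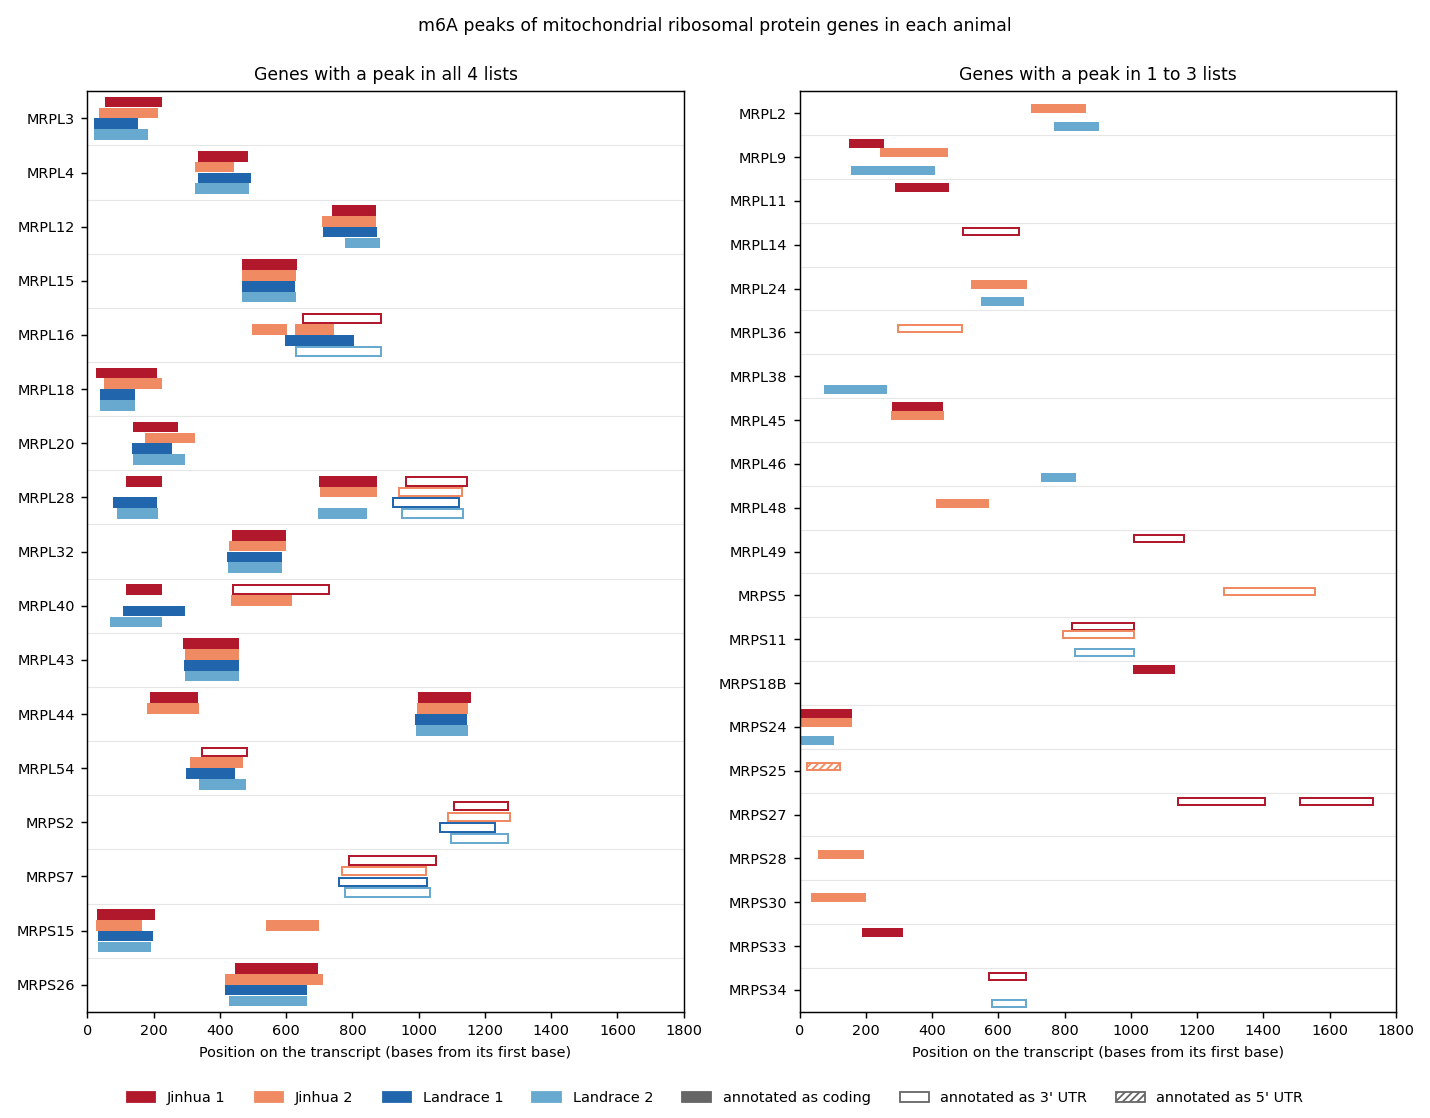
Each row is a mitochondrial ribosomal protein gene and each box a peak, drawn along the transcript in bases from its first base, in 4 lanes with Jinhua 1 at the top, then Jinhua 2, Landrace 1 and Landrace 2. Filled boxes are annotated as coding sequence, open boxes as 3' UTR and the hatched box as 5' UTR. The 17 genes called in all animals are on the left and the 21 others on the right, where no box is Landrace 1.

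Of the small subunit, MRPS2, MRPS7, MRPS15 and MRPS26 were called in every animal. MRPS7, a protein of the head of the small subunit, had a wide 3' UTR peak at bases 791 to 1050 of ENSSSCT00000018735 in Jinhua 1 and 770 to 1022 in Jinhua 2, against 758 to 1024 in Landrace 1 and 777 to 1032 in Landrace 2. MRPS2 also had its peak in the 3' UTR in every animal, with centres at bases 1188.5 and 1181.5 in the Jinhua animals, against 1146.5 and 1182.5 in the Landrace animals. MRPS26, found in mitochondria alone, had a coding peak at bases 448 to 691 of ENSSSCT00000007838 in Jinhua 1 and 417 to 707 in Jinhua 2, against 419 to 660 and 430 to 660 in Landrace 1 and Landrace 2. The second of these Jinhua peaks, 291 bases long, was the widest of the family. MRPS15 had a coding peak near the start of its transcript in all 4, from base 32 in Jinhua 1 and 28 in Jinhua 2, against 35 in Landrace 1 and 34 in Landrace 2. Jinhua 2 alone had another in MRPS15, at bases 541 to 695.

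Overlapping or adjoining peaks of the 4 animals merged into 44 sites in the 38 genes. A site was shared by all 4 animals in 16 cases (36.4%), against 27.1% of the 9414 sites over all genes with complete positions. The share was higher still for cytosolic ribosomal protein genes (48.9%) and genes of respiratory complex I (51.6%), so it was not particular to the family. Another 6 sites of the family were found in 3 animals, 6 in 2 and 16 in 1. The share of single-animal sites was 36.4% in the family and 39.3% over all genes. With peaks under 150 bases left out, 7 of 36 sites were shared by all 4, so this count rests partly on narrow peaks. The share over all genes with that filter is not given here. Most genes of the family had a single peak, since 32 of the 38 (84.2%) never had more than 1 in a list, against 52.2% of all called genes. For cytosolic ribosomal protein genes this share was 88.1%, and for genes of respiratory complex I it was 80.8%. The 6 genes of the family with more were MRPL16, MRPL28, MRPL40, MRPL44, MRPS15 and MRPS27.

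In the number of peaks per gene the family was low in every animal. It had 1.18 and 1.14 peaks per called gene in Jinhua 1 and Jinhua 2, and 1.06 and 1.08 in Landrace 1 and Landrace 2. The other genes had 1.67 and 1.73 in the Jinhua animals, and 1.71 and 1.70 in the Landrace animals. The means were 1.11 ± 0.0546 for the family and 1.70 ± 0.0271 for the other genes (SD, n = 4), a difference of -0.588 with the same sign in 4 of 4 animals. The exact sign-flip permutation p was 0.125, the smallest that 4 animals allow, and 0.25 after Benjamini-Hochberg adjustment over 8 tests, so it did not pass. With peaks under 150 bases left out the difference was -0.319. The animals share most of these genes, so they are not independent draws of the family. The last base under any peak of a gene had a lower median in the family, at base 645, against 1118 for the other genes. This is a count of bases and not a relative place on the transcript. The part of transcript length in the number of peaks was not tested. Cytosolic ribosomal protein genes, with a median last peak base of 424.5, had 1.06 to 1.11 peaks per called gene, within or next to the range of the mitochondrial family.

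The family had few peaks that began at the first base of the transcript model. Only MRPS24 had any, at bases 1 to 154 of ENSSSCT00000018205 in Jinhua 2 and 1 to 100 in Landrace 2, while its peak in Jinhua 1 covered bases 2 to 155. The share of such peaks averaged 1.68% ± 1.96 in the family and 6.74% ± 0.840 in the other genes (SD, n = 4). The difference was -5.06 percentage points and negative in 4 of 4 animals (exact sign-flip permutation p = 0.125, adjusted p = 0.25). With peaks under 150 bases left out it was -1.14 points.

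Peaks of the family lay mostly in coding sequence, with 83 of 111, while 27 lay in the 3' UTR and 1 in the 5' UTR. The 5' UTR peak belonged to MRPS25, at bases 21 to 120 of ENSSSCT00000025590 in Jinhua 2. Coding sequence held 63.6% of the family's peaks in Jinhua 1 (95% Wilson interval 46.6 to 77.8) and 78.8% in Jinhua 2 (62.2 to 89.3). It held 83.3% in Landrace 1 (60.8 to 94.2) and 77.8% in Landrace 2 (59.2 to 89.4). Averaged over animals it was 75.9% ± 8.52 in the family and 69.4% ± 1.37 in the other genes (SD, n = 4, exact sign-flip permutation p = 0.25, adjusted p = 0.381). The difference of 6.53 points was positive in 3 of 4 animals. It was 9.95 without Jinhua 1, 4.17 without Landrace 1, 2.71 with symbols completed and other names added, and 0.217 with peaks under 150 bases left out.

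The 3' UTR held a larger share of peaks in mitochondrial than in cytosolic ribosomal protein genes in each animal, a difference that 4 animals cannot put past the test. It held 36.4% and 18.2% of the mitochondrial family's peaks in Jinhua 1 and Jinhua 2, and 16.7% and 22.2% in Landrace 1 and Landrace 2. In cytosolic ribosomal protein genes it held 0% and 2.56% in the Jinhua animals and 0% in both Landrace animals, a single peak in all. The difference averaged 22.7 percentage points and was positive in 4 of 4 animals (exact sign-flip permutation p = 0.125, the smallest that 4 animals allow, adjusted p = 0.25, chosen after the values were seen). By gene, 13 of the 38 (34.2%) had a 3' UTR peak in any animal, against 1 of 42 cytosolic ribosomal protein genes (2.38%) and 30.9% of all called genes with complete locations. The mitochondrial family was thus near the share of called genes at large, and the cytosolic family was below it.

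Within the family the 3' UTR held a higher share of small subunit than of large subunit peaks in each animal, a difference that 4 animals cannot put past the test. They made up 54.5% and 40% of small subunit peaks in Jinhua 1 and Jinhua 2, and 50% and 57.1% in Landrace 1 and Landrace 2. In the large subunit they made up 27.3% and 8.70% in the Jinhua animals, and 7.14% and 10% in the Landrace animals. No animal's value for the small subunit fell within the range of the large subunit. The same genes recur between animals, since MRPS2 and MRPS7 had a 3' UTR peak in all 4, so the animals are not independent draws. The difference averaged 37.1 points (exact sign-flip permutation p = 0.125, the smallest that 4 animals allow, adjusted p = 0.25, chosen after the values were seen). It rests on few peaks, from 4 to 11 of the small subunit per animal. Counted once per gene the gap was smaller, with a 3' UTR peak in any animal for 6 of 13 small subunit genes (46.2%) and 7 of 25 large subunit genes (28%). The genes were MRPS2, MRPS5, MRPS7, MRPS11, MRPS27 and MRPS34 of the small subunit. In the large subunit they were MRPL14, MRPL16, MRPL28, MRPL36, MRPL40, MRPL49 and MRPL54.

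**Figure D3:**
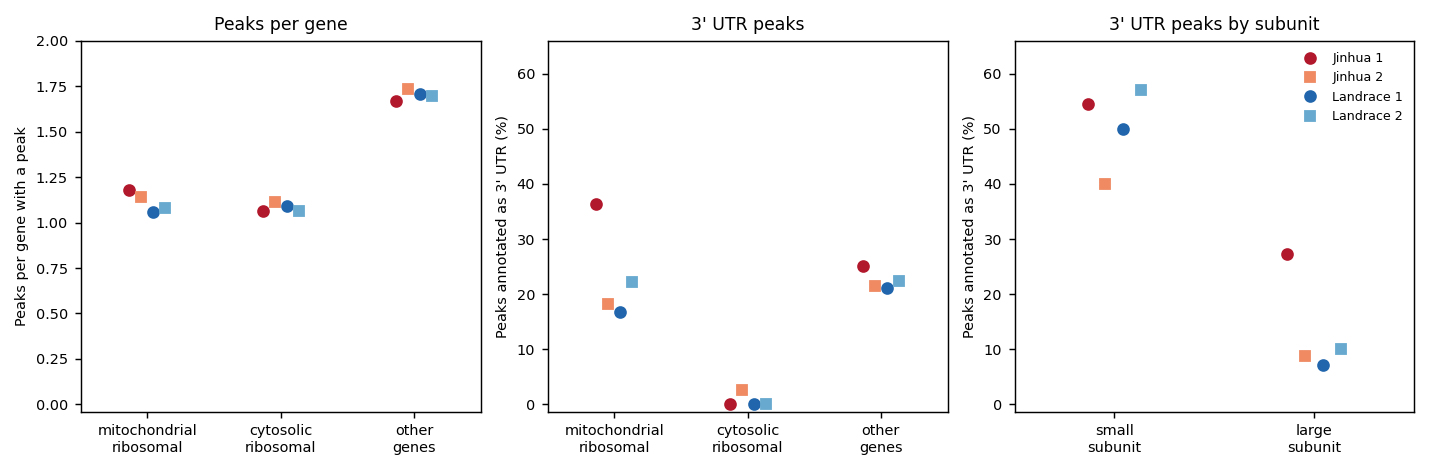
Each point is 1 animal. The first panel plots peaks per gene with a peak and the second the percentage of peaks annotated as 3' UTR, for mitochondrial ribosomal protein genes, cytosolic ribosomal protein genes and other called genes. The third panel plots the 3' UTR percentage for the small and the large mitochondrial subunit, where the small subunit lies between 40% and 57.1% and the large subunit between 7.14% and 27.3%.

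The annotated part changed between animals at 3 sites, those of MRPL16, MRPL40 and MRPL54, which are 10.7% of the 28 sites found in 2 or more animals. Over all genes such mixed annotation was found at 3.98% of 4947 sites. In MRPL54 the peak was annotated as 3' UTR at bases 345 to 480 of ENSSSCT00000025534 in Jinhua 1. It was annotated as coding at 312 to 467 in Jinhua 2, at 301 to 443 in Landrace 1 and at 339 to 476 in Landrace 2. These peaks overlap over 99 bases, and the Jinhua 1 peak ends 4 bases beyond that of Landrace 2. MRPL16, a core protein of the large subunit, was annotated as 3' UTR at bases 651 to 885 of ENSSSCT00000014338 in Jinhua 1 and 631 to 886 in Landrace 2. It was annotated as coding at bases 501 to 600 and 631 to 740 in Jinhua 2 and at 601 to 800 in Landrace 1. In the 916 genes with both kinds of peak, every coding peak ended before every 3' UTR peak in 100% of genes. Ordered by peak start this held in 92.7% of genes, and by centre in 98.8%. The order of annotated parts thus held for the last base of peaks without exception in these genes, and less often for their first base. The rule by which a peak was annotated is not given in the sources used here. Of the 12 3' UTR peaks in Jinhua 1, 3 were at these mixed sites and 4 in genes called in that animal alone.

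Of the 38 genes with a symbol in the lists, 1 was called in both animals of 1 breed and missing from both of the other. MRPL45, which lies at the exit tunnel of the large subunit and anchors it to the inner membrane, had a coding peak at bases 283 to 430 of ENSSSCT00000024338 in Jinhua 1 and 280 to 433 in Jinhua 2, and none in either Landrace list. Jinhua-only genes were thus 1 of 38 here, against 5.15% of all called genes, and Landrace-only genes 0 of 38, against 2.42% of all called genes. The MRPL45 call is uncertain. A second identifier without a symbol in the lists, ENSSSCG00000023263, is named MRPL45 in the gene name table. It had 3' UTR peaks at bases 623 to 778 in both Jinhua animals and at 622 to 777 in Landrace 2, plus one at 351 to 480 in Jinhua 2. Whether reads were split between the identifiers is not given in the sources used here. Under the second identifier MRPL45 was not Jinhua-only. Further genes of the family had a name only in that table, and of these MRPL30 and MRPS18A were Jinhua-only. MRPL30 (ENSSSCG00000008183) had peaks at bases 553 to 708 in Jinhua 1 and 555 to 714 in Jinhua 2. MRPS18A (ENSSSCG00000001692) had peaks at bases 11 to 110 and 621 to 783 in Jinhua 1 and at 591 to 806 in Jinhua 2. With names completed, other names added and the MRPL45 identifiers joined, 2 of 45 symbols (4.44%) were Jinhua-only.

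By position 3 sites were held by the Jinhua animals together and by no Landrace animal (6.82% of 44 sites, where the share was 5.59% of all sites), and none in both Landrace animals alone (3.38% of all sites). They were the MRPL45 site and a site each in MRPL44 and MRPL40, 2 genes called in every animal. MRPL44, a protein with an RNase III fold that is mutated in a human cardiomyopathy, had a coding peak at bases 192 to 330 of ENSSSCT00000017674 in Jinhua 1 and 184 to 332 in Jinhua 2, with no peak there in Landrace 1 or Landrace 2. Its other peak was nearly fixed across animals, at bases 1001 to 1153 and 998 to 1145 in the Jinhua animals, against 991 to 1143 and 995 to 1144 in the Landrace animals. MRPL40 had a peak at bases 441 to 727 of ENSSSCT00000029183 in Jinhua 1 and 438 to 615 in Jinhua 2. A separate MRPL40 site further upstream held peaks at bases 121 to 220 in Jinhua 1, 111 to 290 in Landrace 1 and 71 to 220 in Landrace 2. In MRPL40, Jinhua 2 and the Landrace animals therefore had no base in common. The sites of MRPL44 and MRPL45 were not among the Jinhua-only sites once peaks under 150 bases were left out, since at least 1 of their peaks is narrower. With that filter 4 sites were Jinhua-only, in MRPL18, MRPL28, MRPL40 and MRPS24, and 2 were Landrace-only, in MRPL4 and MRPL40, of 36 sites in all. The shares of such sites over all genes with that filter are not given here, so these counts have no background. MRPL40 alone had a Jinhua-only site under both settings.

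All 6 genes called in 2 or 3 animals across the breeds lacked a peak in Landrace 1. Of all 1373 genes called in such combinations 33.9% lacked one there. MRPL9, MRPS11 and MRPS24 were called in both Jinhua animals and Landrace 2. MRPS11 was marked in its 3' UTR, with bases 821 to 1010 of ENSSSCT00000005626 in Jinhua 1 and 794 to 1010 in Jinhua 2, against 831 to 1008 in Landrace 2. MRPL2 and MRPL24 were called in Jinhua 2 and Landrace 2, and MRPS34 in Jinhua 1 and Landrace 2. MRPL9 peaks covered bases 151 to 250 of ENSSSCT00000031582 in Jinhua 1 and 245 to 443 in Jinhua 2, against 157 to 406 in Landrace 2, so the Jinhua peaks shared 6 bases and the Landrace peak bridged them. The Jinhua 2 peak of MRPL2 covered bases 701 to 860 and the Landrace 2 peak bases 771 to 900. MRPL24 had its peak at bases 521 to 684 in Jinhua 2, against 551 to 674 in Landrace 2. In each of these 6 genes the peaks of the animals fell in 1 site. MRPS34 ended at base 682 in both, from base 571 in Jinhua 1 and 581 in Landrace 2.

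Among genes called in 1 animal, MRPS27, a protein with pentatricopeptide repeats, had 2 peaks of its 3' UTR in Jinhua 1, at bases 1141 to 1405 and 1512 to 1729 of ENSSSCT00000022648. MRPL11, MRPL14, MRPL49, MRPS18B and MRPS33 had 1 peak each in Jinhua 1. MRPL36, MRPL48, MRPS5, MRPS25, MRPS28 and MRPS30 had 1 peak each in Jinhua 2, and MRPL38 and MRPL46 in Landrace 2. MRPL46 and MRPS11 are neighbours in the RefSeq annotation of Sscrofa11.1. In that annotation 15 of the 38 genes overlap another gene, uncharacterised ones included. The share over all genes is not given here, so this count has no background. MRPL49, for example, overlaps FAU and SYVN1, and whether the peak calling kept strands apart is not given in the sources used here. MRPL40, MRPL44 and MRPL45 overlap no other gene there.

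Where all animals had exactly 1 peak at a site, the centres of Jinhua peaks tended to lie downstream. There were 15 such sites, with a median distance of 31 bases between the outermost centres, against 23.5 bases over 2123 such sites in all genes. The mean Jinhua centre lay downstream of the mean Landrace centre at 11 of the 15 sites and upstream at 4, with a median difference of 10.5 bases. Over all genes it lay downstream at 67.5% of sites, with a median of 4.5 bases. The centres of the breeds did not overlap at 5 of 15 sites (33.3%), and Jinhua lay downstream in all 5, MRPL3, MRPL18, MRPL32, MRPL44 and MRPS26. Over all genes they did not overlap at 46.4% of sites, with Jinhua downstream at 758 and upstream at 227. The mean centres of the breeds lay furthest apart in MRPL18 and MRPL3, by 37 bases each. A centre depends on both edges, so a difference in width moves it too. In MRPL18 both Landrace peaks, at bases 41 to 140, lay within the Jinhua 1 peak at 29 to 207. In MRPL44 the nearest centres of the breeds were 1071.5 in Jinhua 2 and 1069.5 in Landrace 2. At least 1 edge lay on a grid of 10 bases in 51.5% to 75.8% of the family's peaks per animal. Landrace 1 alone had the centre furthest upstream at 10 of the 15 sites (66.7%, against 38.5% of sites over all genes), and Jinhua 1 alone the centre furthest downstream at 9 (60%, against 29.3%). Without Landrace 1 the median difference was 2.5 bases, with 9 sites downstream and 6 upstream. Without Jinhua 1 it was 3.25 bases.

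**Figure D4:**
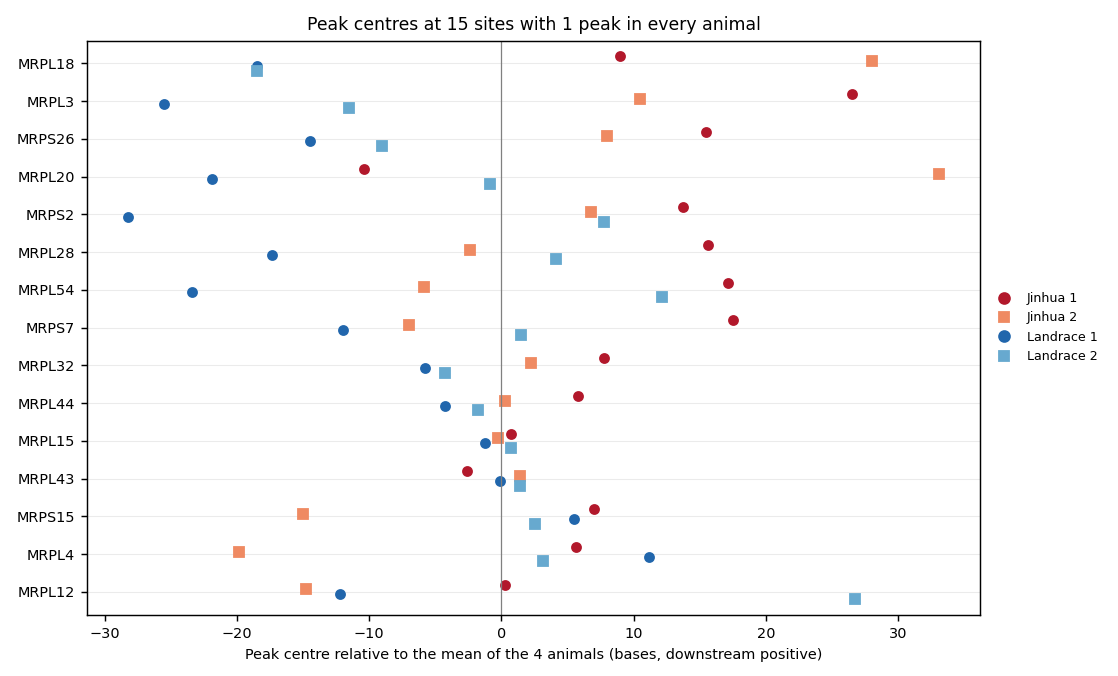
Each row is 1 of the 15 sites with exactly 1 peak in every animal, and each point the centre of 1 animal's peak, in bases from the mean of the 4 centres, with downstream to the right. Rows are ordered by the difference between the breeds, which runs from 37 bases in MRPL18 and MRPL3 to -14.5 bases in MRPL12. Landrace 1 alone is furthest left in 10 rows.

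In bases, the Landrace pair shared the largest fraction, though not the most bases. Of all bases under a peak of either animal of a pair, the fraction under peaks of both was 0.444 in the Jinhua pair and 0.574 in the Landrace pair over this family, against 0.445 and 0.463 over all genes. Between breeds the family's values ran from 0.379 for Jinhua 2 with Landrace 1 to 0.513 for Jinhua 1 with Landrace 2. The last pair thus overlapped more than the Jinhua pair. A gene called in only 1 animal of a pair lowers this fraction, and Landrace 1 held only genes called in every animal. The Jinhua pair shared 3374 of 7607 bases and the Landrace pair 2632 of 4588. The part of list length in these fractions was not tested. No median width of the family's peaks in an animal lay outside 156 to 158 bases.

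Of 34 called genes for other proteins of mitochondrial translation, 1 was Jinhua-only and 0 were Landrace-only, against 5.15% and 2.42% of all called genes. Of 6 mitochondrial ribosomal proteins listed under other names, CHCHD1, GADD45GIP1 and PTCD3 were called, none in all 4 animals. Of 16 symbols of translation factors 5 were called and 2 shared by all. They were TUFM, the elongation factor that brings transfer RNA to the ribosome, with 3 peaks in each Jinhua animal, against 2 in Landrace 1 and 3 in Landrace 2, and the membrane insertase OXA1L with 1 and 2 against 2 and 1. Of 24 symbols of mitochondrial aminoacyl-tRNA synthetases 8 were called and 3 shared by all. Those with most peaks were KARS, with 3 and 2 in the Jinhua animals against 1 and 3 in the Landrace animals, and GARS, with 2 in each. Both encode the cytosolic enzyme as well. No gene of these 3 lists was called in both animals of 1 breed alone. Of 41 symbols for ribosome assembly and mitochondrial RNA, 18 were called and 7 shared by all, led by FASTK with 3 and 3 peaks against 1 and 2, and RNMTL1 with 1 and 2 against 2 and 2. The list held 1 Jinhua-only gene, FASTKD5, which in human cells acts in the processing of mitochondrial RNA, with coding peaks at bases 1971 to 2092 in Jinhua 1 and 1939 to 2099 in Jinhua 2. By animal, 11 and 14 genes of this list were called in the Jinhua animals, against 8 and 9 in the Landrace animals. For synthetases the counts were 7 and 5 against 4 and 4, and for translation factors 3 and 3 against 2 and 3. For the other names they were 3 and 1 against 2 and 0. As background, 28.4% of all symbols with a name entry were called in any animal. By animal this share was 19.6% and 22.8% in Jinhua, against 19.4% and 18.5% in Landrace. Of all called genes, 43.8% were shared by all 4 animals. These are counts of a few genes from peak lists of unequal length, and a difference between breeds was not tested.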

How the data were processed

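m6A peaks were taken from 4 deposited lists, 1 per animal, made by the authors from an immunoprecipitated and an input library of muscle. TRIzol was used for extraction and Dynabeads for mRNA, and the TruSeq kit was stranded, per the labels' protocols. The submitters' processing notes list TopHat2 (2.0.14), Sscrofa10.2 and susScr3, with no role given. No source used here names the peak caller or its threshold. The deposited columns give each peak's start and end, per the file headers, and the sequence they name is an Ensembl transcript, so positions count along it and no genome coordinates are printed.

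Members and gene lists were chosen with earlier results of these data known. All 38 genes may be named. From the other lists up to 4 breed-specific genes and up to 2 called in all 4 animals are named, by mean peaks, then bases covered. Alternatives were other names, peaks of at least 150 bases, other rules of overlap, a replicate block and leaving out each animal. Positions were compared over the 5422 genes with at most 4 peaks in each list, and locations over the 5132 with at most 3, since 2 lists stop there. Overlapping or adjoining peaks were merged into sites, a step checked on simulated peaks with known sharing. Values per animal were compared by exact permutation tests enumerated in Python 3.11.15, whose code was checked on made-up values with a known answer. Benjamini-Hochberg adjustment and Wilson intervals from scipy 1.17.1 were used. These intervals reflect the number of peaks counted, and no other error. The tests of 3' UTR shares were added after seeing the data. Same-numbered animals are not paired in the labels, and nothing says that the animals were raised or sampled together.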

Additional observations from a re-analysis of the deposited data

How the results depend on the processing

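Every difference that was tested kept its direction under each alternative run for it. The share of genes in all lists was not run without peaks under 150 bases. No test had a p under 0.05 in any setting, and none could. The smallest exact p is 0.125 with 4 animals and 0.333 with 2 animals against 2. Leaving out each animal in turn moved the Jinhua minus Landrace difference between 3.5 and 11.5 genes and between 6 and 15 peaks, and the sites shared by all remaining animals between 16 and 20. With peaks under 150 bases left out, 7 sites were shared by all 4, and Jinhua exceeded Landrace by 6 genes and 7.5 peaks. Asking for an overlap of 50% of the shorter peak, or joining peaks up to 50 bases apart, left the shared sites at 16. Completing symbols from the gene name table and adding other names brought in 8 identifiers and gave a difference of 11.5. With both MRPL45 identifiers joined, an alternative added after seeing the data, it was 10.5 genes, and 2 of 45 symbols (4.44%) were Jinhua-only, against 5.15% of all called genes. With the replicate number as a block (2 paired differences, exact sign-flip permutation) the differences were 7.5 genes and 10.5 peaks, with p = 0.5, the smallest possible. Peak lists without read counts limit all of this, since the depth of a library and the strength of a peak are unknown.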
